A study of Arabidopsis thaliana with 12 samples.

Results

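Plant cell walls are loosened, rebuilt and stiffened by families of secreted enzymes and by expansins. Transcripts of 5 Arabidopsis genes of this kind were followed through the last phase of seed development: XTH16 (AT3G23730) and EXGT-A3 (AT2G01850), which encode xyloglucan endotransglucosylase/hydrolases, EXPA15 (AT2G03090), which encodes an alpha-expansin, and AT2G47550 and AT5G19730, which encode pectin methylesterases. The genes were chosen by their measured values: each was among the 10 largest named changes in at least 1 comparison of these arrays, so what follows on them is mainly a description. Each had 1 probe set that named it alone in the platform annotation, and they are 5 of the 13286 genes measured in that way and matched to a gene table, on an array with 22746 probe sets tested. All 5 genes differed in level between the groups, without a common course. XTH16, EXPA15, AT2G47550 and AT5G19730 were lowest in dry seeds in both genotypes, while EXGT-A3 was as high in dry KD seeds as in developing ones and was lower in dry WT seeds.

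The study hybridised RNA from seeds to 12 ATH1 arrays, 2 for each of 6 groups. A genotype labelled KD and described as a mutant was sampled 14 days after flowering (14DAF), 16 days after flowering (16DAF) and as dry seeds. WT was sampled at the same 3 stages. Both genotypes were in the Wassilewskija (WS) ecotype and were grown in a greenhouse under long days. Seeds at 14DAF and 16DAF were dissected from siliques of marked flowers, and dry seeds were collected after desiccation. Seeds were pooled in large numbers for each extraction, so an array is an average over whole seeds, with embryo, endosperm and seed coat together. What KD stands for is not spelled out. The title of the series speaks of altered lysine metabolism, and the cited work of Zhu and Galili joined a knockout of LKR/SDH, the enzyme that starts lysine breakdown, to a bacterial lysine-synthesis enzyme expressed in seeds. For these KD seeds the lesion or transgene, the promoter of any transgene and the number of lines are not stated in the labels. The signal of LKR/SDH, given as log2, was 12.80 to 13.88 on the 6 KD arrays and 8.87 to 10.61 on the 6 WT arrays. The groups did not overlap, and the probe set's place relative to any lesion was not analysed here, so the groups are named by their labels alone.

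For 2 arrays the labels conflict. The source name of WT 16DAF replicate 1 and of KD dry replicate 1 gives the other genotype, whereas title, description and genotype label give the same one, and the title was followed. Over all probe sets the arrays of a group correlated at r = 0.983 to 0.993, and for 12 of 12 arrays this was the highest correlation with any array. The main differences that rest on these 2 arrays are also given without them.

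As background, the primary wall of a growing plant cell is a network of cellulose microfibrils tied by xyloglucan and set in a pectin gel. Xyloglucan endotransglucosylase/hydrolases (XTHs) cut xyloglucan chains and rejoin them to other chains or to water, and expansins loosen the contacts between polymers without cutting them. Pectin methylesterases remove methyl groups from homogalacturonan, which lets calcium stiffen the gel or opens the chain to polygalacturonases and pectate lyases, and proteinaceous inhibitors hold these esterases in check. In a maturing seed the embryo stops expanding and fills with reserves, the seed coat layers die, and the walls must fold and recover as water is lost and regained.

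**Figure D1:**
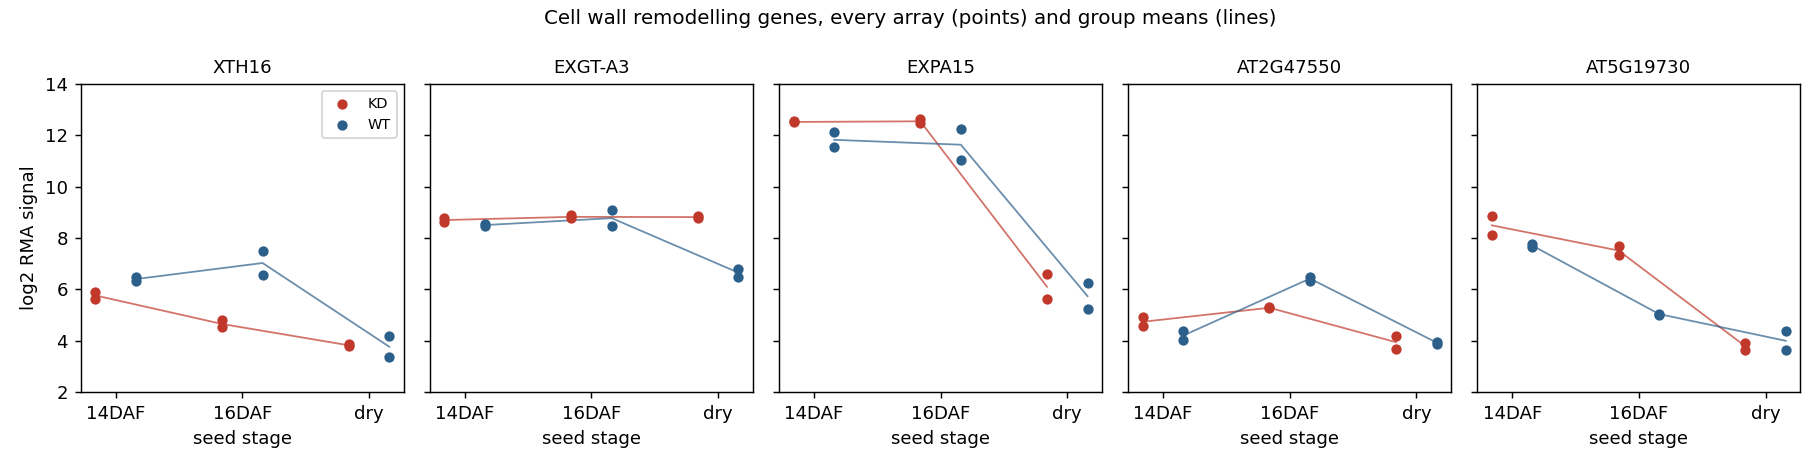
Log2 RMA signal of each gene on every array (points) and the group means (lines), by seed stage, for KD (red) and WT (blue). EXPA15 drops below 7 in dry seeds of both genotypes, whereas the 2 dry KD arrays of EXGT-A3 stay at 8.77 and 8.85, above the 2 dry WT arrays at 6.49 and 6.81.

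The XTH16 arrays read lower in KD than in WT at both developing stages, with the widest gap at 16DAF. Its log2 signal in KD seeds was 5.90 and 5.63 at 14DAF, 4.79 and 4.52 at 16DAF, and 3.86 and 3.79 in dry seeds. In WT seeds it was 6.31 and 6.49 at 14DAF, 7.48 and 6.57 at 16DAF, and 3.37 and 4.17 in dry seeds. The KD arrays were lower at each later stage with no overlap between stages, while the WT arrays were high at both developing stages and low when dry. The genotypes did not overlap at 14DAF or at 16DAF and did overlap in dry seeds.

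The KD minus WT difference in XTH16 was -0.64 at 14DAF (standard error, SE, 0.306), -2.37 at 16DAF and 0.06 in dry seeds, all on the log2 scale with the same SE. The 16DAF gap is a signal 5.17-fold lower in KD, with a 95% interval of -3.05 to -1.69. It was -1.92 without the arrays of conflicting source names. This gap was the 10th largest KD decrease among probe sets naming 1 gene, and it is one of the values that chose the gene.

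Between 14DAF and 16DAF the difference in XTH16 signal was -1.11 in KD (SE 0.306) and 0.63 in WT, with a 95% interval of -1.79 to -0.43 in KD and of -0.05 to 1.30 in WT. The WT value depends on 1 array: it was 0.17 without WT 16DAF replicate 1 and 1.08 without WT 16DAF replicate 2. From 16DAF to dry seeds the difference was -0.83 in KD and -3.26 in WT, or -0.87 in KD and -2.80 in WT without the arrays of conflicting source names. The KD steps were thus of like size, whereas in WT XTH16 was below its 14DAF level only in dry seeds. In both genotypes the dry level was close to the lower quartile of all probe sets, which was 3.67 to 3.78 on the 12 arrays, so the size of a fold against it is uncertain.

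EXGT-A3, also called XTH27 and known from work on leaf veins, had a flat course in KD seeds and a drop in dry WT seeds. Its log2 signal in KD was 8.77 and 8.62 at 14DAF, 8.76 and 8.88 at 16DAF, and 8.85 and 8.77 in dry seeds. In WT it was 8.47 and 8.53 at 14DAF, 8.47 and 9.07 at 16DAF, and 6.81 and 6.49 in dry seeds. The 6 KD arrays and the 4 developing WT arrays spanned 8.47 to 9.07, and only the 2 dry WT arrays lay outside that range.

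In dry seeds EXGT-A3 was 2.16 higher in KD than in WT on the log2 scale (SE 0.193, 95% interval 1.73 to 2.59), a 4.47-fold difference, and 2.12 higher without KD dry replicate 1 and WT 16DAF replicate 1. The change from 16DAF to dry was -0.01 in KD, with an interval of -0.44 to 0.42, and -2.12 in WT, which became -0.05 and -2.42 once the arrays of conflicting source names were left out. The difference between these changes, 2.11, was the 8th largest positive one among probe sets naming 1 gene and helped to choose EXGT-A3. At 14DAF, in a contrast that did not pick the gene, the KD minus WT difference was 0.20 (SE 0.193, limma adjusted p = 0.628), with an interval of -0.23 to 0.62. At 16DAF it was 0.05, or -0.25 without the arrays of conflicting source names, and the arrays of the genotypes overlapped.

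EXPA15 had a high signal at 14DAF and 16DAF in both genotypes and a far lower one in dry seeds. The KD arrays read 12.53 and 12.49 at 14DAF, 12.46 and 12.61 at 16DAF, and 5.62 and 6.58 in dry seeds. The WT arrays read 12.10 and 11.53 at 14DAF, 12.23 and 11.02 at 16DAF, and 5.23 and 6.24 in dry seeds. Dry and developing arrays were far apart in both genotypes, and within each genotype the 14DAF and 16DAF arrays overlapped. Among the 5 genes EXPA15 had the widest span of group means, 6.80 log2 units.

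The change of EXPA15 from 16DAF to dry was -6.44 in KD (SE 0.444, 95% interval -7.42 to -5.45) and -5.89 in WT (same SE, -6.88 to -4.90), an 86.5-fold and a 59.3-fold lower signal. Without the arrays of conflicting source names these changes were -5.96 and -5.29. The KD value was the 8th largest decrease among probe sets naming 1 gene in that comparison, which is how EXPA15 was chosen. From 14DAF to 16DAF the change was 0.03 in KD (interval -0.96 to 1.01) and -0.19 in WT (interval -1.18 to 0.80). Single arrays set the sign of the WT value, which was -0.80 without WT 16DAF replicate 1, 0.42 without WT 16DAF replicate 2 and 0.10 without WT 14DAF replicate 1.

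KD minus WT for EXPA15 came to 0.70 for 14DAF, 0.91 for 16DAF and 0.37 for dry seeds, each with an SE of 0.444. The 14DAF arrays were not among those that chose EXPA15, and the difference there did not pass the threshold of 0.05 in the fit over all probe sets (limma adjusted p = 0.414). The other differences use the KD arrays that chose EXPA15 and are given as a description. Both KD arrays were above both WT arrays at 14DAF and at 16DAF. The interval of the 16DAF difference, -0.08 to 1.90, holds no difference as well as one of over 3-fold. That difference was 0.31 without WT 16DAF replicate 2 and 1.52 without WT 16DAF replicate 1, and the 14DAF one was 0.41 without WT 14DAF replicate 2. The dry seed difference was 0.85 without KD dry replicate 1 and 0.87 without WT dry replicate 2, and turned to -0.12 without KD dry replicate 2 and to -0.14 without WT dry replicate 1. The KD change on drying minus the WT change was -0.55 on the log2 scale (SE 0.627), and it ran from -1.15 to 0.06 when single arrays were left out.

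AT2G47550, a pectin methylesterase gene, had its highest level in WT seeds at 16DAF. The KD arrays read 4.91 and 4.57 at 14DAF, 5.27 and 5.30 at 16DAF, and 3.70 and 4.19 in dry seeds. The WT arrays read 4.38 and 4.03 at 14DAF, 6.34 and 6.50 at 16DAF, and 3.89 and 3.97 in dry seeds. Both genotypes were highest at 16DAF with no overlap with the other stages, and the WT arrays stood above the KD arrays there, whereas the order was turned at 14DAF.

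From 14DAF to 16DAF the AT2G47550 signal was 0.55 higher at the later stage in KD (SE 0.193, 95% interval 0.12 to 0.97) and 2.22 higher in WT (interval 1.79 to 2.64). The difference between these steps was -1.67 (SE 0.273), the 10th in size among the negative ones of named probe sets, and it chose the gene. KD minus WT was 0.54 at 14DAF and -1.14 at 16DAF, a signal 2.20-fold lower in KD, and -1.22 without WT 16DAF replicate 1. From 16DAF to dry seeds the difference was -1.34 in KD and -2.49 in WT, which became -1.10 and -2.57 once the arrays of conflicting source names were left out. In dry seeds the genotypes differed by 0.02 (SE 0.193, limma adjusted p = 0.982), or by 0.26 without KD dry replicate 1 and WT 16DAF replicate 1, at levels near the lower quartile of the arrays. Only the 16DAF arrays of WT exceeded log2 6, so the whole course of AT2G47550 lies among dim to moderate signals.

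AT5G19730, the other pectin methylesterase gene, was highest at 14DAF and lowest in dry seeds, and its level at 16DAF differed widely between the genotypes. The KD arrays read 8.85 and 8.13 at 14DAF, 7.32 and 7.70 at 16DAF, and 3.66 and 3.92 in dry seeds. The WT arrays read 7.64 and 7.76 at 14DAF, 5.06 and 5.02 at 16DAF, and 3.63 and 4.37 in dry seeds. The 16DAF KD arrays overlapped the 14DAF WT arrays, and the dry arrays of the genotypes overlapped each other.

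At 16DAF AT5G19730 was 2.47 higher in KD than in WT (SE 0.275, 95% interval 1.86 to 3.08), a 5.54-fold difference, and 2.49 higher without WT 16DAF replicate 1. It was the 9th largest KD increase among probe sets naming 1 gene at that stage, and so helped to choose AT5G19730. The KD minus WT difference was 0.79 at 14DAF, or 0.43 without KD 14DAF replicate 1, and -0.21 in dry seeds.

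The steps of AT5G19730 were placed differently in the 2 genotypes. From 14DAF to 16DAF the difference was -0.98 in KD, or -0.62 without KD 14DAF replicate 1, and -2.66 in WT (SE 0.275). From 16DAF to dry seeds it was -3.72 in KD, a 13.2-fold lower signal that became -3.59 without the arrays of conflicting source names, and -1.04 in WT, or -0.67 without WT dry replicate 1. Most of the KD decrease thus fell in the drying step and most of the WT decrease in the step before it, and the group means spanned 4.70 log2 units in all. In both genotypes the dry level was close to the lower quartile of the arrays, so the size of the drying steps is uncertain.

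**Figure D2:**
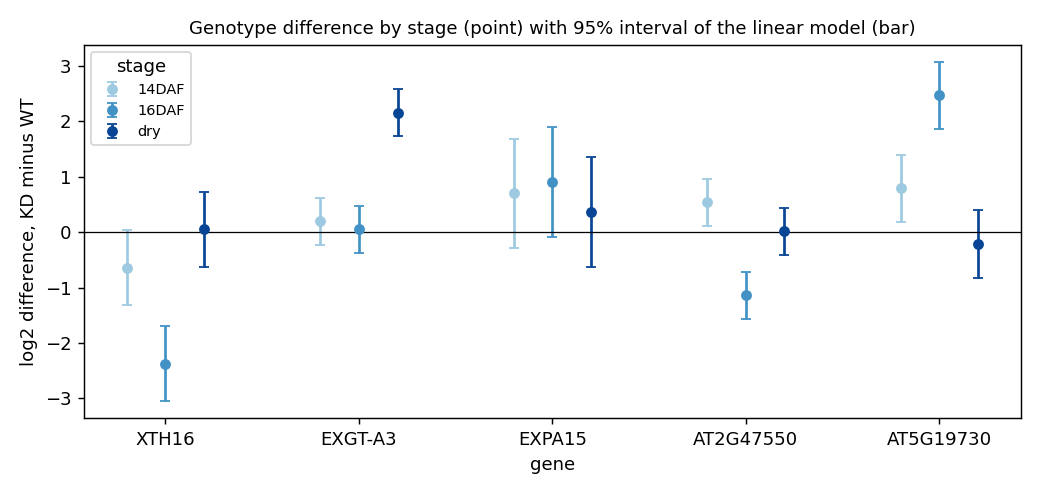
KD minus WT difference on the log2 scale for each gene at 14DAF, 16DAF and in dry seeds (points) with the 95% interval of the linear model (bars). At 16DAF the point of XTH16 lies at -2.37, that of AT2G47550 at -1.14 and that of AT5G19730 at 2.47, and in dry seeds only EXGT-A3, at 2.16, has an interval that leaves out 0.

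Seen side by side, the genotype differences at 16DAF were negative for XTH16 and AT2G47550, positive for AT5G19730, and had intervals that hold 0 for EXGT-A3 and EXPA15. In dry seeds the interval left out 0 for EXGT-A3 alone. The 2 XTH genes had their widest gaps at different stages, and the 2 pectin methylesterase genes had gaps of opposite sign at 16DAF. The 16DAF gaps of XTH16 and AT5G19730 are among the values that chose these genes. The arrays behind the dry seed gap of EXGT-A3 and the 16DAF gap of AT2G47550 also helped to choose them, so this is a description and not a test. At 14DAF both pectin methylesterase genes were higher in KD, AT2G47550 by 0.54 (interval 0.11 to 0.96) and AT5G19730 by 0.79 (interval 0.18 to 1.40). These intervals are not adjusted for the number of probe sets. Neither difference passed the threshold in the fit over all probe sets (limma adjusted p = 0.123 for AT5G19730). The 14DAF arrays are among those that chose AT2G47550, so its difference at that stage is a description only. Over the 6 group means the profiles of the 5 genes correlated in pairs at r = 0.17 (AT5G19730 with AT2G47550) to 0.87 (AT5G19730 with EXPA15). These correlations rest on 6 points that share their arrays.

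Markers of other seed tissues were read on the same arrays. A list of seed coat markers held 16 genes, of which 5 were measured by a probe set of their own. Their mean log2 signal was 7.61 and 6.85 in KD at 14DAF, 6.17 and 6.19 in KD at 16DAF, and 4.99 and 5.12 in KD dry seeds. In WT it was 7.31 and 7.91 at 14DAF, 5.95 and 5.93 at 16DAF, and 5.03 and 5.09 in dry seeds. The mean was thus lower at each later stage in both genotypes, but not every marker followed it. DELTA-VPE, BAN and DFR did, whereas ARA12 read 9.32, 8.31 and 9.32 in KD and 10.15, 9.35 and 9.31 in WT at the successive stages, and AT3G50990 stayed between 3.82 and 4.11. No measured marker is read as absent, since an array has no true 0.

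One seed coat marker, DELTA-VPE, a vacuolar protease gene of the dying inner coat layers, had a mean log2 signal of 7.49 in KD (SD 0.35) and 5.63 in WT (SD 0.26) at 16DAF. At 14DAF it was 9.76 in KD and 9.67 in WT, and in dry seeds 3.93 in KD and 3.94 in WT, so its genotype gap lay at the same stage and ran the same way as that of AT5G19730. The other 4 measured markers had no gap of that size in that direction: at 16DAF ARA12 was lower in KD (8.31, against 9.35 in WT), DFR read 6.32 in KD and 6.37 in WT, and AT3G50990 read 4.11 in KD and 3.82 in WT. BAN, which encodes the anthocyanidin reductase of tannin synthesis, read 6.30 in KD and 7.47 in WT at 14DAF, and 4.66 in KD and 4.57 in WT at 16DAF. The part of the seed coat in the changes of AT5G19730 was not tested, and in whole seeds fewer cells of a type and less RNA per cell cannot be told apart. The 2 measured endosperm markers (of 10) averaged 3.68 to 3.98 and the 2 silique wall and funiculus markers (of 6) 3.49 to 3.93 on all arrays, near the lower quartile. The 5 measured seed identity genes (of 17), which encode storage cupins, oleosins and a late embryogenesis abundant protein, averaged 11.94 to 13.25. This average hides single courses. AT3G53040, the late embryogenesis abundant gene, read 11.10 in KD and 7.57 in WT at 14DAF, and 13.81 in KD and 13.50 in WT in dry seeds. The oleosin gene OLEO3 read 13.33 in KD and 13.19 in WT at 16DAF, and 10.07 in KD and 10.76 in WT in dry seeds.

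The 3′ minus 5′ signal of 3 control transcripts, which reflects RNA integrity and labelling, was 4.11 and 3.59 in KD at 14DAF, 3.39 and 3.74 in KD at 16DAF, and 3.47 and 3.33 in KD dry seeds. In WT it was 4.05 and 4.16 at 14DAF, 3.55 and 4.25 at 16DAF, and 3.26 and 3.45 in dry seeds. All 4 dry arrays lay below all 4 arrays of 14DAF seeds, and WT 16DAF replicate 2, the array with the lowest EXPA15 level among developing seeds, had the highest value. Its part in the differences between stages was not tested.

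**Figure D3:**
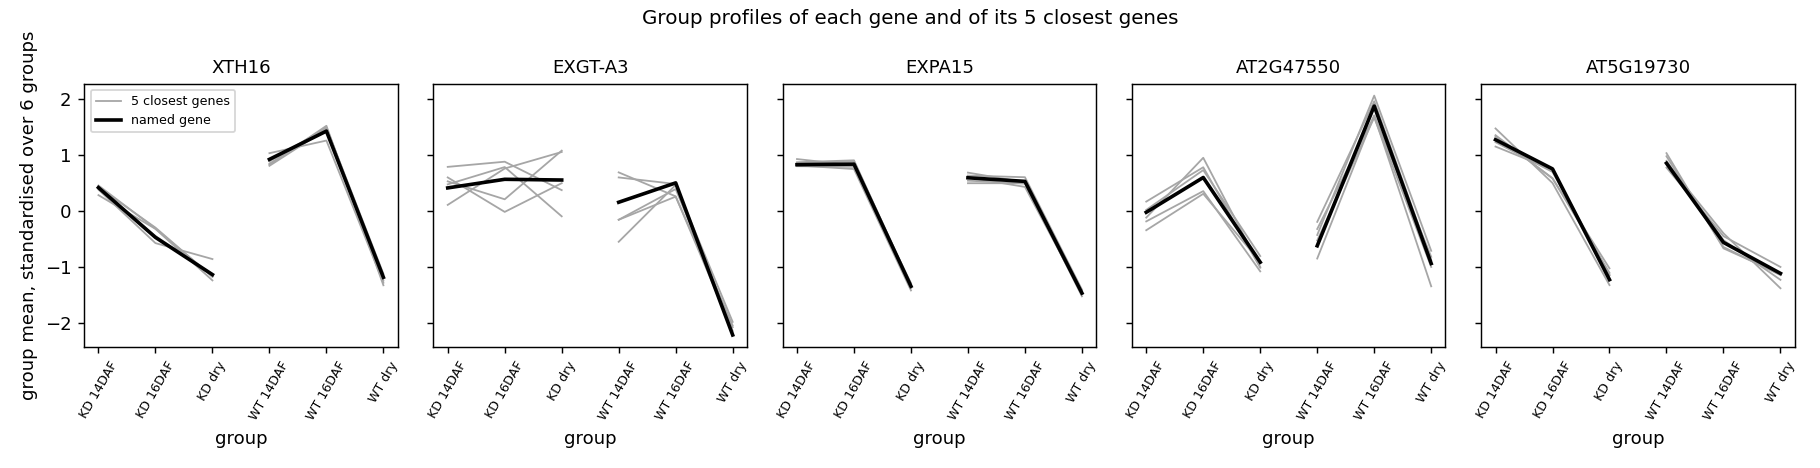
Group means of each gene (black) and of its 5 closest genes (grey), each standardised to mean 0 and SD 1 over the 6 groups, in the order KD 14DAF, KD 16DAF, KD dry, WT 14DAF, WT 16DAF, WT dry. The grey lines lie tightest around EXPA15 and spread most around EXGT-A3.

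For each gene the 5 most similar named profiles were taken from 5241 probe sets naming 1 gene whose group means spanned at least 1 log2 unit, by Pearson's r over the 6 group means. The points share their arrays and normalization, and r across 6 points is given as a description. EXPA15 had by far the most company, with 391 probe sets over r = 0.95, against 84 for AT5G19730, 41 for XTH16, 15 for AT2G47550 and 3 for EXGT-A3.

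The profile nearest to XTH16 was that of AT1G76230 (r = 0.999), with mean log2 signals of 4.90, 3.99 and 3.25 in KD, and of 5.38, 6.08 and 3.20 in WT, from 14DAF over 16DAF to dry seeds. AT5G54860, AT1G52660, AT3G19680 and AT3G07470 followed it. Nearest to EXGT-A3 was AT3G12620 (r = 0.953), with 8.15 in dry KD and 6.77 in dry WT seeds, then BGLU45, a gene named as a beta-glucosidase, with 5.34 in dry KD and 3.51 in dry WT seeds. AT5G46780, AT4G26910 and AT4G28990 completed the 5.

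EXPA15 was followed most closely by AT3G03680 (r = 0.999), AT1G51745, GH9C2, AT3G05320 and AT1G55210. GH9C2 belongs to the glycosyl hydrolase family of plant endoglucanases, which act on cellulose, and read 10.45, 10.17 and 4.72 in KD, and 9.49, 9.36 and 4.60 in WT, in the same order of stages. AT5G35580 (r = 0.986), AT1G04040, AT1G15190, AT4G30670 and AT5G12270 were closest to AT2G47550. AT1G04040 read 7.50 in KD and 8.38 in WT at 16DAF, its highest stage in both genotypes.

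Closest to AT5G19730 were TRM22 (r = 0.997), AT1G71691, AT1G27700, AT5G45540 and BBM, which encodes the embryo regulator BABY BOOM. TRM22 read 6.76 in KD and 4.84 in WT at 16DAF, with 7.52 in KD and 7.16 in WT at 14DAF. BBM had a smaller gap at 16DAF, 6.31 in KD and 5.84 in WT, and 5.54 in KD and 5.37 in WT in dry seeds.

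The 5 genes belong to larger families. A set of 8 cell wall lists held 263 loci, of which 155 had 1 or more probe sets naming them alone (157 probe sets): 10 of 33 XTH genes, 18 of 35 expansins, 44 of 66 pectin methylesterases, 17 of 22 pectin methylesterase inhibitors, 37 of 54 polygalacturonases, 23 of 26 pectate lyases, 1 of 14 cellulose synthesis genes and 5 of 13 genes of xyloglucan synthesis and trimming. Most of these probe sets were dim, and 54 of the 157 reached log2 5 in at least 1 group mean, while the medians of the arrays were 4.91 to 5.28. The part of this dimness in the shares called below was not tested. The group means of 48 spanned at least 1 log2 unit, and the highest group was KD 14DAF for 7, KD 16DAF for 8, dry KD for 2, WT 14DAF for 19, WT 16DAF for 6 and dry WT for 6. As shares these are 14.6%, 16.7%, 4.2%, 39.6%, 12.5% and 12.5% of the 48, beside 6.9%, 8.1%, 22.3%, 28.2%, 8.0% and 26.5% of the 9735 probe sets of all kinds with such a span. The 48 include the 5 chosen genes, all with their highest group mean in developing seeds. For EXGT-A3 that mean, 8.82 in KD at 16DAF, was level with 8.81 in dry KD seeds, and the arrays overlapped.

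**Figure D4:**
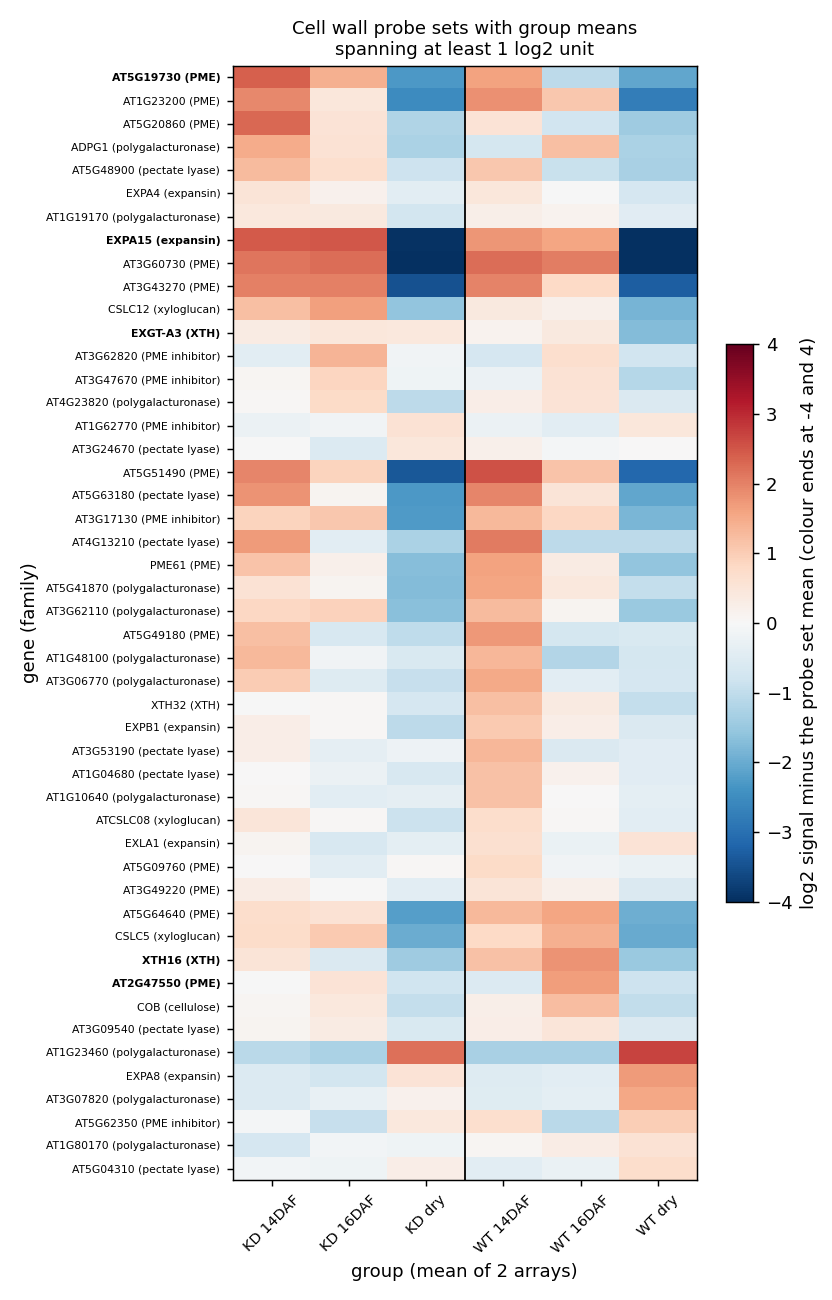
Group means minus the mean of each probe set, on the log2 scale, for the 48 cell wall probe sets whose group means span at least 1 unit, sorted by the group with the highest mean. The 5 genes described here are in bold, and AT3G60730 and EXPA15 share the deepest blue in the dry groups of both genotypes.

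Counts of family members past the threshold (limma, Benjamini-Hochberg adjusted p under 0.05 over all probe sets) are read against all probe sets. From 16DAF to dry seeds 11 of the 157 rose and 27 fell in KD, 24.2% in all against 34.9% of all probe sets (19.6% rose and 15.3% fell), and 15 rose and 30 fell in WT, 28.7% against 37.3% (20.4% and 16.9%). Without the 5 genes the counts were 11 and 24 in KD and 15 and 25 in WT. The median change of the 157 was -0.06 in KD and -0.02 in WT. The split depends on the scaling: with each array centred on its median, 20 rose and 22 fell in KD and 37 rose and 25 fell in WT. The median change of all probe sets then moved to 0.21 from 0.03 in KD and to 0.23 from 0.02 in WT. Of all probe sets called, 70.0% rose in KD and 70.5% in WT after centring, against 56.1% and 54.7% before it. The number that rose in KD was 5 to 7 when any KD 16DAF or KD dry array was left out, and the number that rose in WT was 8 without WT dry replicate 2. Many of the increases were of dim probe sets. Among those whose highest group mean reached log2 5, 6 rose and 26 fell in KD, and 8 rose and 27 fell in WT. This filter keeps a probe set by the group where it is highest, which for most of the 48 with a wide span was a developing stage. The matching shares of all probe sets are not given, so these counts do not show a fall of the families.

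Of the 44 pectin methylesterases 1 rose and 10 fell in KD, and 4 rose and 11 fell in WT. Of all probe sets 19.6% rose and 15.3% fell in KD, and 20.4% rose and 16.9% fell in WT. The calls were 25% of the list in KD and 34.1% in WT, against 34.9% and 37.3% of all probe sets. The chosen AT2G47550 and AT5G19730 were among those that fell in both genotypes, so the number of decreases is partly set by the choice. Leaving out WT 16DAF replicate 2 or WT dry replicate 2 left 1 increase in WT, and the KD increase was lost without either KD 16DAF array or KD dry replicate 2. The number that rose in KD was 2 or 3 without a WT 14DAF or WT 16DAF array. The median change of the list was -0.13 in KD and -0.08 in WT, against 0.03 and 0.02 over all probe sets. AT3G60730, another pectin methylesterase gene, had a course like that of EXPA15: its mean log2 signal was 6.59 in dry and 12.97 in 16DAF seeds of KD, and 6.20 in dry and 12.79 in 16DAF seeds of WT. It fell by 6.39 in KD (SE 0.557, limma adjusted p = 1.16e-05) and fell by 6.59 in WT (adjusted p = 9.11e-06). AT3G43270 fell by 5.52 in KD (limma adjusted p = 3.34e-07), and its mean was 5.50 in dry and 9.58 in 16DAF seeds of WT. AT5G51490 fell by 4.28 in WT (limma adjusted p = 4.64e-06), and its mean was 4.40 in dry and 8.66 in 16DAF seeds of KD.

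Some members of the lists rose on drying, unlike the 5 genes. The expansin gene EXPA8 rose by 1.27 in KD (limma adjusted p = 0.000185) and by 2.11 in WT (adjusted p = 5.98e-06), whereas EXPA15 was lower in dry seeds, so the 18 measured expansins held changes in both directions. In each genotype 1 rose and 3 fell, with EXPA15 among those that fell, beside 19.6% and 15.3% of all probe sets in KD and 20.4% and 16.9% in WT, and without KD dry replicate 1 only 1 fell in KD. Without either KD 14DAF array 2 expansins rose in WT. The probe set of AT1G23460, a polygalacturonase gene, rose by 3.46 in KD (adjusted p = 9.58e-06) and 4.01 in WT (adjusted p = 3.5e-06), and its design allows transcripts of similar genes to bind. The inhibitor gene AT5G62350 rose by 1.38 in KD and 2.05 in WT, and the inhibitor gene AT3G17130 fell by 3.34 in KD and fell by 2.66 in WT, each past the threshold. CSLC5 and CSLC12 encode members of the family that makes the xyloglucan backbone, and both passed the threshold. CSLC5 fell by 3.02 in KD and fell by 3.44 in WT, and CSLC12 fell by 3.23 in KD and fell by 2.09 in WT.

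From 14DAF to 16DAF 3 of the 157 rose and 10 fell in KD, 8.28% against 9.5% of all probe sets (4.63% rose and 4.86% fell), and 2 rose and 18 fell in WT, 12.7% against 19.5% (9.2% and 10.3%). With the arrays centred, 4 rose and 7 fell in KD, and 4 rose and 16 fell in WT, with the median of all probe sets at 0.12 in KD and 0.15 in WT. Of all probe sets called, 67.4% rose in KD and 59.0% in WT after centring, against 48.8% and 47.2% before it. The number that fell in KD was 4 without KD 14DAF replicate 1 or either array of KD 16DAF, and 6 without either KD dry array. In WT it was 11 without WT 14DAF replicate 2. AT2G47550 and the inhibitor gene AT3G62820 were the 2 that rose in WT. AT3G62820 rose by 1.37 in WT (limma adjusted p = 0.000568) and by 1.78 in KD (adjusted p = 0.00116), and the number that rose in KD was 1 when any KD 14DAF or 16DAF array was left out. The polygalacturonase genes AT1G48100 and AT3G06770 also fell at this step. AT1G48100 fell by 1.43 in KD and fell by 2.52 in WT, and AT3G06770 fell by 1.53 in KD and fell by 1.93 in WT.

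**Figure D5:**
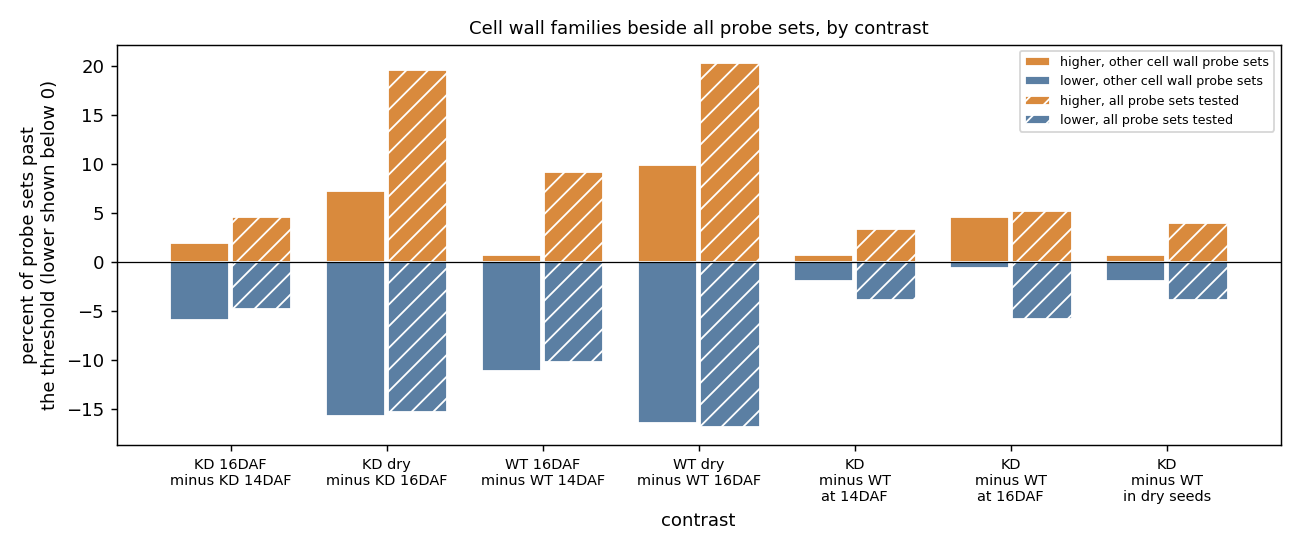
Percent of probe sets past the threshold that were higher (above 0) or lower (below 0) in each contrast, for the 152 cell wall probe sets other than the 5 genes (plain bars) and for all probe sets tested (hatched bars). On drying, the hatched bars for higher calls, 19.6% in KD and 20.4% in WT, stand above the plain ones.

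Between the genotypes few family members passed the threshold. At 14DAF 1 of the 157 was higher and 3 were lower in KD, 2.55% against 7.27% of all probe sets (3.35% higher and 3.92% lower), and none of them was one of the 5 genes. At 16DAF 8 were higher and 3 lower, 7.01% against 11.1% (5.22% and 5.88%), or 7 higher and 1 lower without XTH16, AT2G47550 and AT5G19730. In dry seeds 2 were higher and 3 lower, 3.18% against 7.91% (4.01% and 3.9%), or 1 higher and 3 lower without EXGT-A3. The median difference of the 157 was 0.02, 0.05 and -0.01 at 14DAF, 16DAF and in dry seeds, beside 0.01, -0.03 and -0.02 over all probe sets. The number higher at 16DAF was 3 when KD 16DAF replicate 1 was left out, 2 when KD 16DAF replicate 2 was, and 4 when WT 16DAF replicate 2 was.

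The 14DAF counts moved with single arrays, with 0 higher if KD 14DAF replicate 2 or WT 14DAF replicate 1 was left out and 3 higher if a WT 16DAF array was. The number lower at 14DAF was 1 without KD 14DAF replicate 2 or WT 14DAF replicate 2, 10 without WT 14DAF replicate 1 and 6 if a WT 16DAF array was left out. In dry seeds the number higher was 1 without either KD dry array or WT dry replicate 2 and 4 without either WT 16DAF array, and the number lower was 1 without WT dry replicate 2. The matching counts over all probe sets are not given, so these moves cannot be read as a trait of the families.

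The pectate lyase gene AT5G48900 was 1.54 higher in KD at 16DAF (SE 0.163, limma adjusted p = 0.000626), with 6.27 and 6.66 on the KD arrays against 4.78 and 5.07 on the WT arrays. Like AT5G19730, it fell by 1.98 in WT between 14DAF and 16DAF (adjusted p = 5e-05) and fell by 1.50 in KD from 16DAF to dry seeds (adjusted p = 5.05e-05). EXPA8 differed by -1.17 between dry KD and dry WT seeds (SE 0.167, limma adjusted p = 0.00253), with 5.95 and 5.46 on the KD arrays against 6.83 and 6.91 on the WT arrays. Both calls were kept under each of the alternative settings tried.

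Tests of whether a stage change differed between the genotypes called few family members. From 14DAF to 16DAF 1 had a positive and 1 a negative difference, 1.27% against 0.356% of all probe sets (0.202% positive and 0.154% negative), and from 16DAF to dry seeds 2 had a positive and 1 a negative difference, 1.91% against 1.38% (0.765% and 0.611%). The calls were AT5G48900 and AT2G47550 at the first step and XTH16, EXGT-A3 and AT5G19730 at the second. As 4 of these 5 calls chose the genes described here, the shares say nothing about the families, and among the other 152 probe sets 1 was called at the first step and 0 at the second, where 15 of the 152 had an unadjusted limma p under 0.05, beside 3108 of the 22746 probe sets of all kinds. Both calls at the first step were lost when most of the single arrays were left out, and at the second step those of XTH16 and AT5G19730 were lost without some of them.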

How the data were processed

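Per the submitters' processing notes, the authors made the deposited values with RMA, and Partek is also named. The sources used here give neither versions and settings nor whether all arrays were normalized at once. The deposited values are taken as log2 signals from their range, and per the labels RNA was amplified by the 2-cycle Affymetrix protocol. They were used without further normalization. The table held 22810 probe sets, and 22746 were tested after 64 controls had been taken out. The platform annotation named 1 gene for 13513, several for 503 and none for 8730, and 13436 of the first kind matched a table of TAIR10.1 genes, the source of the symbols. No coordinates are given because no build is named.

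Groups came from the sample titles. The title of WT dry replicate 1 has WS, the ecotype of both genotypes, in place of WT, and the array was taken as WT. Whether the 2 repeats of a group came from separate plants is not said, so the p-values cover the spread between these samples alone, and it may be technical. The number of arrays limits the precision.

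With limma 3.58.1 (R 4.3.3), linear models with 6 group means were fitted to the 12 arrays (lmFit and eBayes, 6 residual and 4.16 prior degrees of freedom), with two-sided tests and Benjamini-Hochberg adjustment over all probe sets in each of 9 contrasts, at an adjusted p of 0.05. The script was tested on simulated data. SEs, 95% intervals and log2 differences are from this model, and SDs are of 2 arrays. Tables were made with pandas 2.3.3 under Python 3.11.15, and figures with matplotlib 3.10.9.

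The 5 genes and the lists were chosen with earlier results of these data known, so the 5 genes carry an adjusted p only in contrasts of arrays that did not pick them, or, in the closing section, to say whether a difference in change passed the threshold. Named family members are from up to 2 increases and 2 decreases per list and contrast with no overlap between arrays (no such condition for differences between stage changes). The 5 closest profiles per gene and up to 4 markers per list by span could also be named. The text reports part of these. The 20 alternatives were arrays centred on their medians, quantile normalization, eBayes with trend, robust eBayes, a filter at a highest group mean of log2 5, a replicate block, leaving out the arrays of conflicting source names, a fit to the arrays of the contrast alone, and leaving out each of the 12 arrays.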

Additional observations from a re-analysis of the deposited data

Results flagged for a closer look

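For 4 of the 5 genes the term for a difference in stage change between the genotypes was past the threshold, and these values are among those that chose the genes. On the log2 scale the KD change minus the WT change from 16DAF to dry was 2.43 for XTH16, 2.11 for EXGT-A3 and -2.68 for AT5G19730, and from 14DAF to 16DAF it was -1.67 for AT2G47550. Without the arrays of conflicting source names they were 1.94, 2.37, -2.57 and -1.75. Of the 20 alternatives, 13 lost the call of AT2G47550, 7 lost that of XTH16 and 3 that of AT5G19730. Leaving out the arrays of conflicting source names was among those for XTH16 and AT5G19730, and 0 lost the call of EXGT-A3. As these values chose the genes on the same arrays, a call that was kept is not independent support.

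From 14DAF to 16DAF both KD arrays of XTH16 were lower at the later stage and both WT arrays higher, a KD minus WT difference in change of -1.74. The limma test of this difference did not pass the threshold (SE 0.432, adjusted p = 0.113), and the WT part was 0.17 without WT 16DAF replicate 1. The 16DAF arrays it uses are among those on which XTH16 was chosen.

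The pectate lyase gene AT5G48900, not one of the 5, had a KD minus WT difference in change of 1.37 from 14DAF to 16DAF (SE 0.231, limma adjusted p = 0.0459). The call was lost under 15 of the 20 alternatives, where the adjusted p reached 0.189.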

How the results depend on the processing

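No difference of the 5 genes and no named family member changed direction where it was called. Of the alternatives' values for the differences of the 5 genes, 649 moved by less than the spread between replicate arrays and 71 by more. Leaving out an array that a contrast does not use cannot move its difference, and such values are among the 649. The split is thus no measure of stability. The counts of cell wall probe sets called (13 in KD and 20 in WT from 14DAF to 16DAF, 38 in KD and 45 in WT from 16DAF to dry, and 4, 11 and 5 between genotypes at 14DAF, 16DAF and dry) depended on the arrays fitted. With the arrays of the contrast alone they were 11 in WT from 14DAF to 16DAF, and 1, 7 and 8 between genotypes at 14DAF, 16DAF and in dry seeds. Without the arrays of conflicting source names they were 8 at 14DAF and 3 in dry seeds between genotypes, and 1 for the difference in drying change. For the difference in change from 14DAF to 16DAF, 2 calls became 1 after quantile normalization and with trend, and 0 with the replicate block and with the arrays of the contrast alone.

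Leaving out single arrays gave 5 to 16 calls in KD and 13 to 25 in WT from 14DAF to 16DAF, and 27 to 42 in KD and 34 to 46 in WT from 16DAF to dry. Between genotypes it gave 1 to 10 at 14DAF, 4 to 11 at 16DAF and 2 to 8 in dry seeds, and for the differences in change 0 to 6 at the first step and 1 to 4 on drying. Deviations of same-numbered arrays from their group means correlated at -0.33 to 0.417 over 15 pairs of groups, with 3 over 0.1. No pairing was assumed in the main fit, and whether same-numbered arrays of some groups shared a batch was not tested. With the replicate block the counts were 10 in KD and 18 in WT, 35 in KD and 41 in WT, and 4, 9 and 5 between genotypes. The matching counts over all probe sets are not given for these alternatives.

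Signals near the lower quartile limit folds against dry seeds.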
